A study of Mus musculus with 2 samples.

Results

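A cassette exon is an internal exon that some transcripts of a gene carry and others leave out between the same flanking exons. The exons described here are the short ones, of 15 to 51 nt. They were taken from the deposited transcript annotation by 3 criteria: length, inclusion and skipping both annotated between the same flanking splice sites, and at least 20 reads over the 2 forms in each library. By this rule 508 of 4450 cassette exons were members, and they lay in 454 genes. The annotation held 2031 short exons with both forms, so most did not reach the read minimum. The rule used the number of reads and not how they divided, so inclusion, which is the share of reads that carry the exon, was not used to choose them.

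The study sequenced long reads of RNA from the hippocampus of female B6CASTF1/J mice, a hybrid of inbred strains, aged 14 days. There was 1 group of 2 libraries, each from a pool of 3 animals and 2 µg of RNA, with no treatment and no other genotype. Synthetic ERCC and SIRV spike-in RNAs had been added. By their characteristics the pools came from separate animals, although 1 description line names the same animals for both.

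Replicate 1 held 1168366 reads and replicate 2 held 888704. The 5 neuronal markers summed to 4863 and 5616 CPM (reads scaled to a common library total), and the 5 markers of excitatory hippocampal neurons, the 4 of astrocytes, the 4 of oligodendrocytes, the 4 of microglia and the 2 of endothelium were all read in both libraries. Markers of choroid plexus summed to 4636 CPM in replicate 1 and 5.63 CPM in replicate 2, with 1 of 4 genes read in both. Tissue was read in bulk, so a lower inclusion in every cell and a different mixture of cells cannot be told apart for any exon below.

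Exons of a few codons are a known feature of the nervous system. Many such microexons are included in neurons and skipped elsewhere, under splicing factors such as Srrm4 and the Rbfox and Ptbp families. Because they add a small insert without moving the reading frame, they are known for adjusting the surfaces by which synaptic, cytoskeletal and trafficking proteins bind each other. A long read carries all exons of a molecule that it spans, so 2 exons of a transcript can be seen together.

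The sequences below are those the results turn on, taken from the GENCODE M21 transcripts (mm10), 5′ to 3′ along the transcript. Capitals mark the cassette exon and lower case the last 9 and first 9 bases of the annotated neighbouring exons. The first set holds 4 pairs of equal-length exons in related genes. They encode catalytic subunits of the phosphatase calcineurin, microtubule affinity regulating kinases, MEF2 transcription factors and liprin-alpha scaffolds.
Ppp3ca 30-nt exon (chr3:136932011-136932040, plus strand): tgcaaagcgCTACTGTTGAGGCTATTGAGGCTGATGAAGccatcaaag
Ppp3cb 30-nt exon (chr14:20503247-20503276, minus strand): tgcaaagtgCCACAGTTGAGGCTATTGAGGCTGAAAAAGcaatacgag
Mark2 27-nt exon (chr19:7279986-7280012, minus strand): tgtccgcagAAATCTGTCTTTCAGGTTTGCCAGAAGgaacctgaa
Mark3 27-nt exon (chr12:111651958-111651984, plus strand): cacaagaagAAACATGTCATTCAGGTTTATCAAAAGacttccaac
Mef2a 24-nt exon (chr7:67244521-67244544, minus strand): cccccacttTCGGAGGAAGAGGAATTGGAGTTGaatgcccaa
Mef2c 24-nt exon (chr13:83654598-83654621, plus strand): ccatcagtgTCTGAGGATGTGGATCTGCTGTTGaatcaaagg
Ppfia3 27-nt exon (chr7:45343553-45343579, minus strand): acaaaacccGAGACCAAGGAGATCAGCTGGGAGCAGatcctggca
Ppfia4 27-nt exon (chr1:134311529-134311555, minus strand): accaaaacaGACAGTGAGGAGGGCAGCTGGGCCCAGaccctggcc

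The second set shows exons at the lower length limit. Of the reads counted as included or skipped, nearly all carried those of Snap91, Abi1 and Sptan1, and none carried that of Dctn1. At Dctn1 a larger number of reads had the displaced junctions described below.
Snap91 15-nt exon (chr9:86798830-86798844, minus strand): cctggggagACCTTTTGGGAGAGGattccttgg
Abi1 15-nt exon (chr2:22963214-22963228, minus strand): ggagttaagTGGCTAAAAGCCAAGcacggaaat
Sptan1 15-nt exon (chr2:30014158-30014172, plus strand): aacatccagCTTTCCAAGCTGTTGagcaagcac
Dctn1 15-nt exon (chr6:83197319-83197333, plus strand): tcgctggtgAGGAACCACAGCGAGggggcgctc

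The third set holds exons of synaptic, cytoskeletal and trafficking genes that were read in part of the transcripts, and the short exons linked to another exon within reads.
Ncam1 30-nt exon (chr9:49550540-49550569, minus strand): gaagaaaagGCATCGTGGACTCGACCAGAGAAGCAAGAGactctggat
Camk2b 45-nt exon (chr11:5981070-5981114, minus strand): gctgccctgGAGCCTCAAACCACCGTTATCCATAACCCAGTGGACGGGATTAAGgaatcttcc
Nckap1 18-nt exon (chr2:80571213-80571230, minus strand): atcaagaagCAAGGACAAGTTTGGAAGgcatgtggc
Clta 36-nt exon (chr4:44031400-44031435, plus strand): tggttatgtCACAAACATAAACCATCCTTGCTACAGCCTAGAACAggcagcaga
Dnm1l 39-nt exon (chr16:16342697-16342735, minus strand): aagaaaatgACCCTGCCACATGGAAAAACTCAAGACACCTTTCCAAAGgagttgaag
Exoc7 39-nt exon (chr11:116293275-116293313, minus strand): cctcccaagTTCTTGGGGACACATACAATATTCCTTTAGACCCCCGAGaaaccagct
Epb41l3 36-nt exon (chr17:69273882-69273917, plus strand): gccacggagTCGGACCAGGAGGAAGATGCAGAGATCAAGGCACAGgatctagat
Ptk2 18-nt exon (chr15:73282218-73282235, minus strand): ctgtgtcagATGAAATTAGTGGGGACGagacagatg
Ptk2 21-nt exon (chr15:73275621-73275641, minus strand): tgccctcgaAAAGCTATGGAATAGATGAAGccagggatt

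Short cassette exons were spread over the whole range of inclusion. Their median inclusion was 41.3% in replicate 1 and 39.2% in replicate 2, and 39.4% as the mean of the 2 libraries; over annotated transcripts alone it was 25.0%. By that mean, 196 exons were included in less than 10% of reads, 167 in 10 to 90% and 145 in more than 90%. No included read was found for 109 exons, and no skipped read for 59. Cassette exons of 52 to 200 nt, chosen by the same read minimum, had a median of 90.2%, with 1134 of 3538 below 10%, 631 between and 1773 above 90%. Partial inclusion thus took 167 of 508 short exons and 631 of 3538 longer ones. A member had a median of 63.5 reads in replicate 1 and 53 in replicate 2, and exact Clopper-Pearson intervals at 95%, which cover counting error only, were under 20 percentage points wide for 390 and 384 exons.

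Where the exon lay in the transcript went with how often it was read. By annotation 362 members lay inside coding sequence, 47 in 5′ UTRs, 7 in 3′ UTRs, 56 held or bordered a start or stop codon and 36 lay in transcripts without coding sequence. Coding members had a median inclusion of 70.7%. The medians were 1.35% for 5′ UTR exons, 1.27% for those at a start or stop codon and 1.79% for those in noncoding transcripts. Of the 74 members in no protein-coding transcript, 61 were included in less than 10% of reads and none in more than 90%.

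Of the 10 exons with the most reads, 7 were close to full inclusion or to none. Calm2, a calmodulin gene, carried its 31-nt exon in 4063 of 4068 reads in replicate 1 (99.9%, interval 99.7 to 100%) and 2362 of 2371 in replicate 2 (99.6%, 99.3 to 99.8%). The 33-nt exon of Mbp, the myelin basic protein of oligodendrocytes, was in 2070 of 2105 reads in replicate 1 (98.3%, interval 97.7 to 98.8%) and 2315 of 2339 in replicate 2 (98.97%, 98.5 to 99.3%). Gnas, the stimulatory G protein alpha subunit, carried the 45-nt exon that makes its long form in 1536 of 1549 reads in replicate 1 (99.2%, interval 98.6 to 99.6%) and 1279 of 1285 in replicate 2 (99.5%, 98.99 to 99.8%). All 3 were thus almost constant in both libraries.

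Near 0 stood the 45-nt exon of the actin gene Actg1, read in 3 of 1977 reads in replicate 1 (0.152%, interval 0.0313 to 0.443%) and 1 of 1725 in replicate 2 (0.058%, 0.00147 to 0.323%). The 43-nt exon of Hsbp1, a heat shock factor binding protein, and the 48-nt exon of Nsf, the ATPase that takes SNARE complexes apart, had no included read among 948 and 546 and among 658 and 718 reads. For Nsf these counts allow an inclusion of up to 0.456% and 0.418%, taken as 3 reads divided by the reads counted. Both of the last-named exons lie in UTRs. Limits given below for exons with no included read are taken in this way, unless printed as an interval.

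Ndrg4, an Ndr family gene expressed in neurons, held 2 of the most-read members, and they differed. Its 39-nt exon was in 1212 of 1820 reads in replicate 1 (66.6%, interval 64.4 to 68.8%) and 1181 of 1715 in replicate 2 (68.9%, 66.6 to 71.05%), while its 48-nt exon was in 1747 of 1774 reads in replicate 1 (98.5%, interval 97.8 to 98.99%) and 1621 of 1644 in replicate 2 (98.6%, 97.9 to 99.1%). Its relatives had short exons as well. The 42-nt exon of Ndrg2, which is expressed in astrocytes, was in 163 of 916 reads in replicate 1 (17.8%, interval 15.4 to 20.4%) and 182 of 1064 in replicate 2 (17.1%, 14.9 to 19.5%). The 39-nt exon of Ndrg3, named after its values were seen, was in 52 of 642 reads in replicate 1 (8.1%, interval 6.11 to 10.5%) and 52 of 628 in replicate 2 (8.28%, 6.25 to 10.7%). Intervals of the 39-nt and 42-nt exons of the 3 genes did not overlap in either library.

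**Figure D1:**
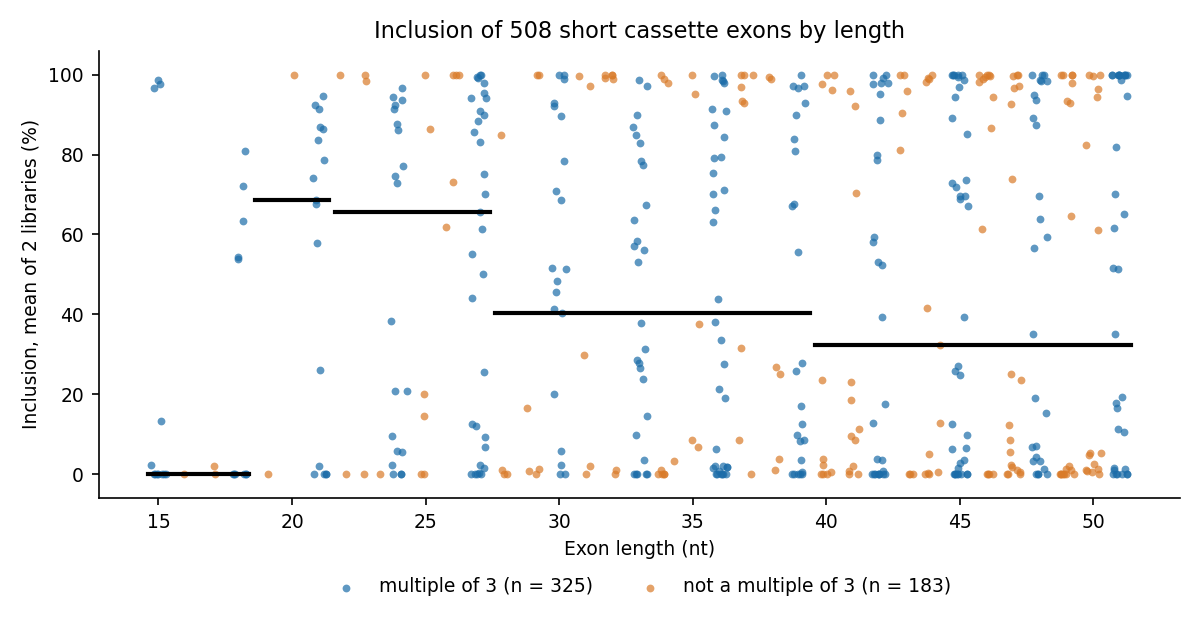
Inclusion of each of the 508 short cassette exons (vertical axis, mean of 2 libraries, in percent) against exon length in nt (horizontal axis), with points spread sideways within a length. Blue points are exons whose length is a multiple of 3 and orange points the others, and black bars are medians of lengths 15 to 18, 19 to 21, 22 to 27, 28 to 39 and 40 to 51 nt: 0, 68.6, 65.7, 40.3 and 32.4%.

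Median inclusion fell and rose with length rather than following it steadily. The 114 exons of 15 to 27 nt had a median of 54.1%, the 159 of 28 to 39 nt 40.3% and the 235 of 40 to 51 nt 32.4%. Within the first class the 26 exons of 15 to 18 nt had a median of 0, the 19 of 19 to 21 nt 68.6% and the 69 of 22 to 27 nt 65.7%. Over the 508 exons, Spearman's rho of length and inclusion was 0.058, a description over exons that share libraries and in part genes. At the limits of the rule, the 33 exons of 51 nt had a median of 51.6% and the 19 of 52 nt just outside had 46.0%.

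Several of the shortest exons were nevertheless in nearly all reads counted as included or skipped. Snap91, the clathrin assembly protein AP180, carried its 15-nt exon in 206 of 211 reads in replicate 1 (97.6%, interval 94.6 to 99.2%) and 204 of 209 in replicate 2 (97.6%, 94.5 to 99.2%). Abi1, a subunit of the WAVE complex that starts actin branches, carried its own in 134 of 135 reads in replicate 1 (99.3%, interval 95.9 to 100%) and 115 of 117 in replicate 2 (98.3%, 93.96 to 99.8%). Sptan1, the alpha chain of spectrin, did so in 91 of 93 reads in replicate 1 (97.8%, interval 92.4 to 99.7%) and 109 of 114 in replicate 2 (95.6%, 90.1 to 98.6%). These 3 exons stood far above the other 9 of 15 nt, whose inclusion was at most 13.2% as the mean of the libraries. These shares leave out the displaced junctions described below, which were frequent at Dctn1, Sh3glb2, Ergic3 and Chchd3 among the 9.

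Among exons of 15 to 18 nt, 15 of 26 had no included read, against 94 of 482 exons of 19 to 51 nt. Below the rule's limit, 20 of 21 cassette exons under 15 nt had none. For some of these exons, reads crossed the same introns with a junction that is not annotated and whose ends lay within 20 nt of the same flanking sites. Such reads count as neither form, and they were counted after the other results were seen. They made up over 20% of reads at 5 of the 26 exons of 15 to 18 nt and at none of the 482 longer members. At cassette exons of 52 to 200 nt they did so in 4 of 3538.

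The 5 exons were those of Dctn1, Sh3glb2, Ergic3 and Chchd3, each of 15 nt, and 1 of 2 18-nt exons of Atp6v0a1 that share both flanks. Dctn1, the large subunit of the dynein activator dynactin, had 0 of 48 and 0 of 44 reads with the exon, beside 140 and 163 reads with a displaced junction. In 299 of these, the upstream exon ran 17 nt longer than annotated. Sh3glb2, an endophilin B gene, had 0 of 22 and 0 of 22 reads with the exon, beside 288 and 264 displaced. Ergic3, of the endoplasmic reticulum to Golgi carrier, had 0 of 117 and 0 of 69, beside 169 and 121. At Snap91 the displaced reads numbered 22 and 35, or 11.9% of all reads there, and with any flanking sites its inclusion was 88.5% and 82.9%. The inclusion printed for exons of 15 to 18 nt leaves these reads out, and whether the displaced reads came from molecules that held the exon was not tested. The inclusion given for exons of 15 to 18 nt, Snap91 included, is a share of the reads with either annotated form, not of all molecules.

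**Figure D2:**
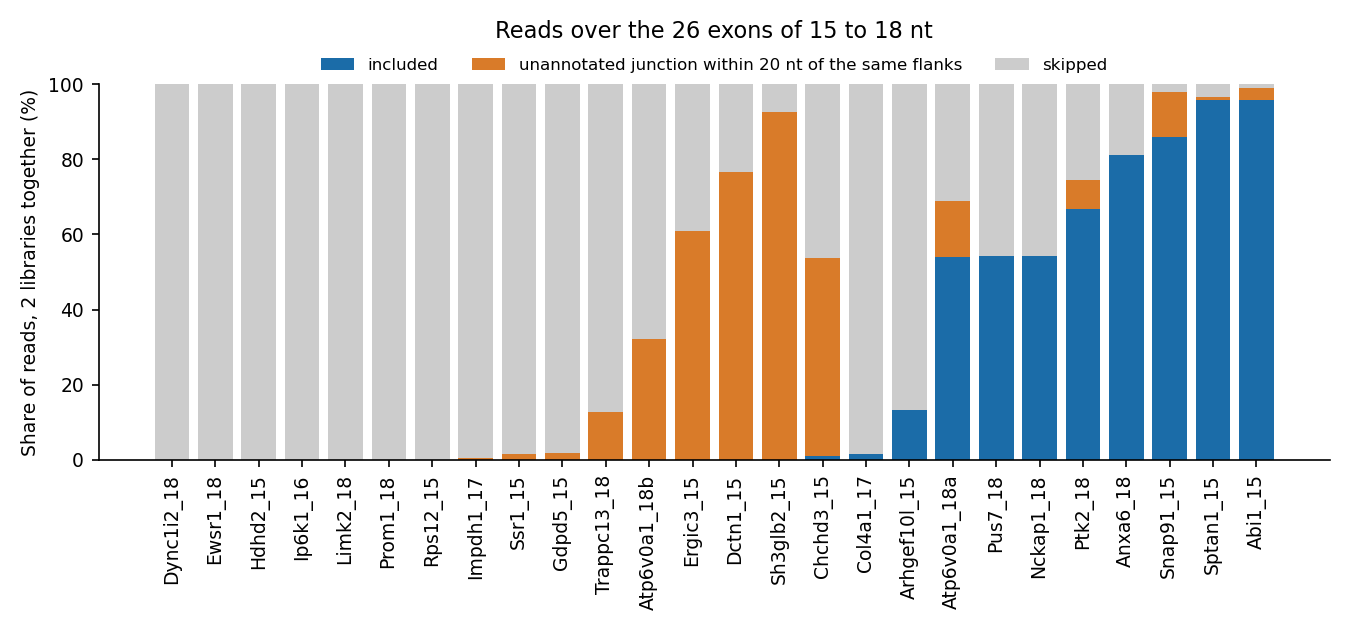
Shares of reads (vertical axis, percent, both libraries together) that included the exon, skipped it or had an unannotated junction within 20 nt of the same flanks, for each of the 26 exons of 15 to 18 nt (horizontal axis, gene and length in nt). The orange share was over 50% at Sh3glb2, Dctn1, Ergic3 and Chchd3, and 15 exons have no blue share.

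Of the 508 short exons, 325 had a length that is a multiple of 3, a share of 64.0%. Frame-keeping and frame-shifting are used here for length alone, wherever the exon lies. Of the 325, 263 lay inside coding sequence, where length decides whether the reading frame is kept. Among exons of 52 to 200 nt the share was 44.3%, and among all cassette exons 46.9%. It was 80.7% at 15 to 27 nt, 67.9% at 28 to 39 nt and 53.2% at 40 to 51 nt. The share was highest at partial inclusion. Of the 167 short exons included in 10 to 90% of reads, 137 kept the frame, or 82.0%. The shares were 57.7% of the 196 below 10% and 51.7% of the 145 above 90%. The classes differed in position, with 136 of the 167, 94 of the 196 and 132 of the 145 inside coding sequence. Among coding members alone the shares were 89.0% at 10 to 90%, 78.7% below 10% and 51.5% above 90%. Longer exons, at all positions, had shares of 61.2% at 10 to 90%, 36.9% below 10% and 43.1% above 90%. Inside coding sequence the longer exons had shares of 71.4% at 10 to 90%, 62.6% below 10% and 44.0% above 90%.

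Inside coding sequence, frame and inclusion went together in another way. The 263 coding exons that keep the frame had a median inclusion of 59.3%, and 121 of them were included in 10 to 90% of reads. The 99 coding exons that shift the frame had a median of 97.1%. Of these, 64 were above 90%, 20 below 10% and 15 between. In no protein-coding transcript lay 15 of the 99, against 0 of the 263, so their coding position came from other transcripts. Coding exons of 52 to 200 nt had medians of 97.7% with the frame kept and 98.98% with it shifted. Of these 4 groups, the short frame-keeping exons alone had a median between 10 and 90%. By position in the codon, 109 of the 263 followed a whole codon, 85 followed its first base and 69 its second, with median inclusions of 69.6, 55.5 and 55.0%.

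**Figure D3:**
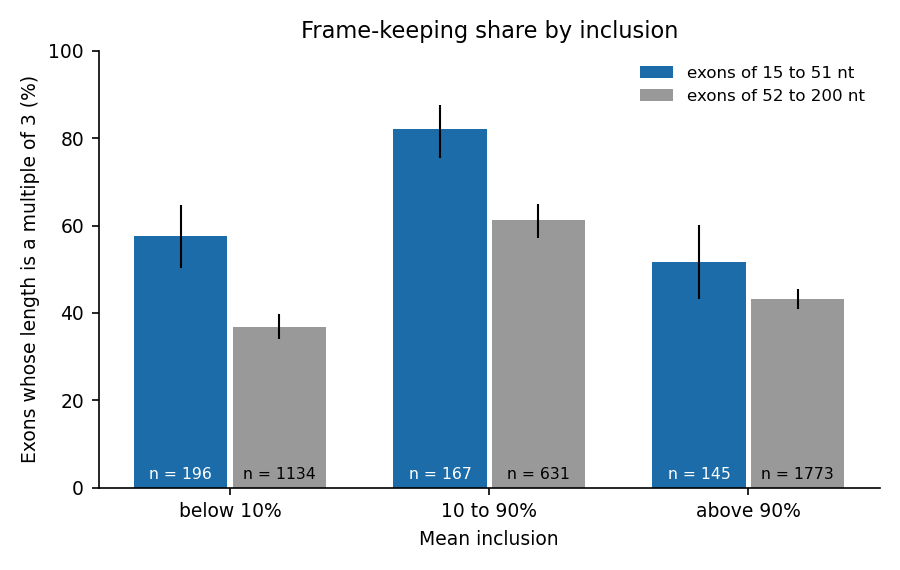
Share of exons whose length is a multiple of 3 (vertical axis, percent) by mean inclusion (horizontal axis), for exons of 15 to 51 nt in blue and of 52 to 200 nt in grey, with exact 95% binomial intervals over exons and the number of exons in each bar. The middle bars are the tallest of each colour, at 82.0% and 61.2%.

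The 5 frame-shifting exons with the most reads were those of Calm2 and Hsbp1, described above, and of Ttyh1, Hnrnpk and Snap47. Those of Hsbp1 and Snap47 are so named by length only, since they lie in UTRs. The 46-nt exon of Ttyh1, a chloride channel protein, was in 561 of 571 reads in replicate 1 (98.2%, interval 96.8 to 99.2%) and 720 of 734 in replicate 2 (98.1%, 96.8 to 98.95%). Snap47, a relative of the SNARE protein SNAP-25, carried its 50-nt 5′ UTR exon in 7 of 585 reads in replicate 1 (1.2%, interval 0.482 to 2.45%) and 5 of 482 in replicate 2 (1.04%, 0.338 to 2.4%). Partly used frame-shifting exons inside coding sequence were few, and those of Sirt2 and Camkk2 are examples chosen after their values were seen. Sirt2, a tubulin deacetylase abundant in oligodendrocytes, carried a 47-nt exon in 58 of 449 reads in replicate 1 (12.9%, interval 9.96 to 16.4%) and 47 of 408 in replicate 2 (11.5%, 8.59 to 15.02%). Camkk2, a kinase that activates CaM kinases, carried a 43-nt exon in 51 of 62 reads in replicate 1 (82.3%, interval 70.5 to 90.8%) and 80 of 100 in replicate 2 (80%, 70.8 to 87.3%).

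Other sequence features were close to those of longer exons. Median GC content was 47.1% for members and 50% for exons of 52 to 200 nt. The upstream intron had a median of 1294.5 nt and the downstream intron 1470.5 nt, against 1548 and 1421.5 nt. At 15 to 18 nt the downstream intron was shorter, with a median of 847 nt over 26 exons.

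The 25 short exons of synapse genes had a median inclusion of 51.3%, and 22 kept the frame. Of these 25, 14 were included in 10 to 90% of reads, 5 in fewer and 6 in more. Calcineurin, the calcium-dependent phosphatase of the synapse, held a short exon in all 3 catalytic genes. In Ppp3ca the 30-nt exon was in 1097 of 1497 reads in replicate 1 (73.3%, interval 70.96 to 75.5%) and 1134 of 1657 in replicate 2 (68.4%, 66.1 to 70.7%). Its counterpart in Ppp3cb was carried by all 118 and all 120 reads. The 27-nt exon of Ppp3cc was in 1 of 33 reads in replicate 1 (3.03%, interval 0.0767 to 15.8%) and 0 of 23 in replicate 2 (0%, 0 to 14.8%). The exons of Ppp3ca and Ppp3cb share 26 of 30 bases, yet that of Ppp3ca was skipped in part of the reads and that of Ppp3cb in none.

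A pair of exons of Camk2b, the beta subunit of CaM kinase II, stood at opposite ends. The 45-nt exon was in 440 of 482 reads in replicate 1 (91.3%, interval 88.4 to 93.6%) and 594 of 683 in replicate 2 (86.97%, 84.2 to 89.4%). The 33-nt exon (chr11:5989936-5989968) was in none of 316 and 457 reads, which allows up to 0.949% and 0.656%. Aplp2, an amyloid precursor relative, carried its 36-nt exon in 286 of 404 reads in replicate 1 (70.8%, interval 66.1 to 75.2%) and 293 of 409 in replicate 2 (71.6%, 67 to 75.96%), and Dlgap1, a postsynaptic scaffold protein, its 30-nt exon in 74 of 103 reads in replicate 1 (71.8%, interval 62.1 to 80.3%) and 89 of 136 in replicate 2 (65.4%, 56.8 to 73.4%). Over annotated transcripts alone, the means of the 2 libraries were 20.3% for Aplp2 and 57.8% for Dlgap1.

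Lower were the exons of adhesion genes. Cadm1, a synaptic adhesion molecule, carried its 33-nt exon in 44 of 188 reads in replicate 1 (23.4%, interval 17.6 to 30.1%) and 46 of 142 in replicate 2 (32.4%, 24.8 to 40.8%), and with any flanking sites counted in 48.6% and 51.3%. Ncam1, the neural cell adhesion molecule, carried its 30-nt exon, known as VASE, in 37 of 83 reads in replicate 1 (44.6%, interval 33.7 to 55.9%) and 53 of 114 in replicate 2 (46.5%, 37.1 to 56.1%); it was named after its values were seen. In Nrcam, another adhesion gene, the 30-nt exon was in 9 of 20 reads in replicate 1 (45%, interval 23.1 to 68.5%) and 19 of 33 in replicate 2 (57.6%, 39.2 to 74.5%). Gria2, an AMPA receptor subunit, had a 41-nt exon at a start or stop codon in none of 121 and 128 reads.

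**Figure D4:**
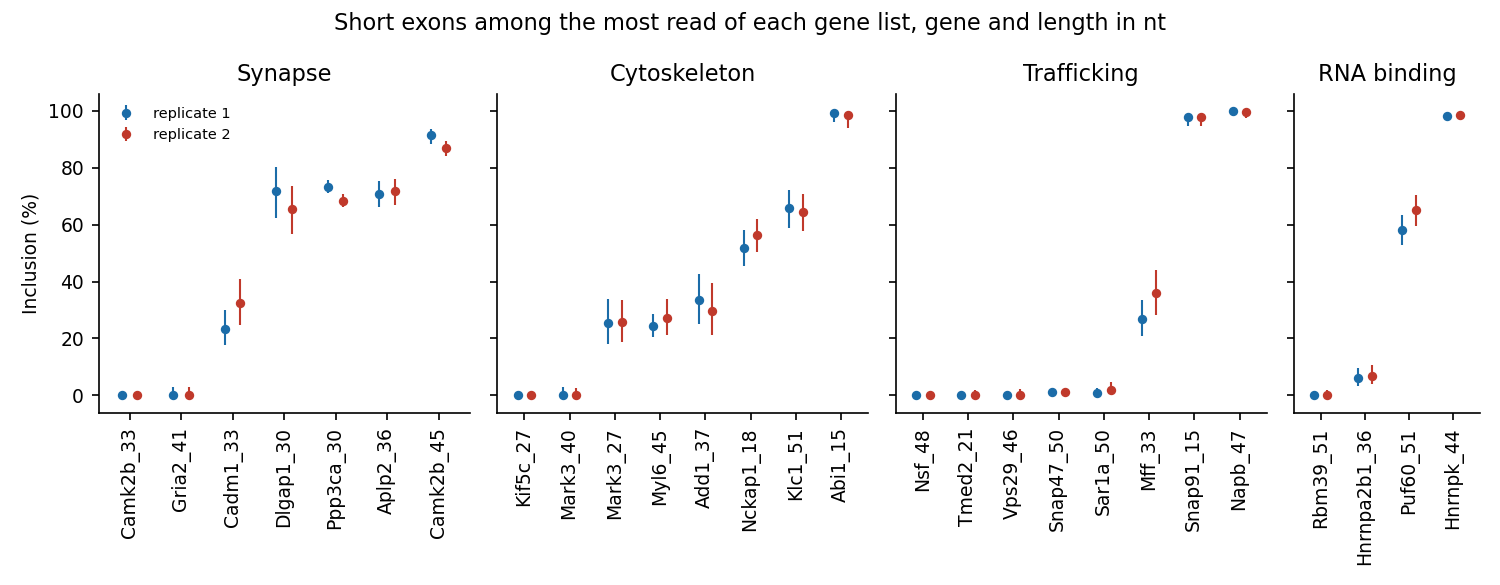
Inclusion (vertical axis, percent) of short exons among the most read of each gene list (horizontal axis, gene and length in nt) in replicate 1 (blue) and replicate 2 (red), with exact 95% intervals for counting error. The synapse exons shown run from 0 to 91.3% and the cytoskeleton exons shown from 0 to 99.3%, with gaps in both. The trafficking exons shown leave the stretch between 35.9% and 97.6% empty. Of all 48 trafficking exons, shown or not, 16 were included in 10 to 90% of reads.

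The 35 short exons of cytoskeleton genes had a median inclusion of 24.8%, and 26 kept the frame. The median was 12.4% without replicate 2, 16.1% at 15 to 27 nt and 42.8% with at least 50 reads. By use, 15 were below 10%, 12 between and 8 above 90%. Nckap1, another WAVE complex subunit, carried its 18-nt exon in 132 of 255 reads in replicate 1 (51.8%, interval 45.4 to 58.04%) and 173 of 308 in replicate 2 (56.2%, 50.4 to 61.8%). It was thus included in about as many reads as it was skipped, while the 15-nt exon of its partner Abi1 was almost constant. Kinesin genes differed as well. Klc1, a kinesin light chain, carried its 51-nt exon in 136 of 207 reads in replicate 1 (65.7%, interval 58.8 to 72.1%) and 144 of 224 in replicate 2 (64.3%, 57.6 to 70.6%), and in 47.4% in each library with any flanking sites. The 27-nt exon of the heavy chain Kif5c (chr2:49728542-49728568) was in none of 263 and 314 reads, or at most 1.14% and 0.955%.

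Mark2 and Mark3, kinases that loosen tau from microtubules, each held a 27-nt and a 45-nt exon. In Mark3 the 27-nt exon was in 33 of 130 reads in replicate 1 (25.4%, interval 18.2 to 33.8%) and 37 of 144 in replicate 2 (25.7%, 18.8 to 33.6%), and in Mark2 in 7 of 86 reads in replicate 1 (8.14%, interval 3.34 to 16.1%) and 5 of 95 in replicate 2 (5.26%, 1.73 to 11.9%). The intervals of the 2 genes did not overlap in either library. The 45-nt exons were high in both genes, with 98.98% and 98.2% in Mark3 and 92.9% and 95.7% in Mark2, which were named after their values were seen. A 40-nt exon of Mark3, which shifts the frame, had no included read among 123 and 141. Myl6, a myosin light chain, carried its 45-nt exon in 107 of 440 reads in replicate 1 (24.3%, interval 20.4 to 28.6%) and 55 of 202 in replicate 2 (27.2%, 21.2 to 33.9%), and Add1, an adducin that caps actin, its 37-nt exon in 40 of 120 reads in replicate 1 (33.3%, interval 24.99 to 42.5%) and 31 of 104 in replicate 2 (29.8%, 21.2 to 39.6%).

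The 48 short exons of trafficking genes had a median of 12.8%, and 37 kept the frame. Their median was 5.13% without replicate 1, 0 over annotated transcripts alone and 27.3% with at least 50 reads. They were split, with 24 below 10%, 16 between and 8 above 90%. No included read was found for 17, among them 3 of the 5 exons with many displaced junctions described above. Of the 8 most read, 5 were near 0. Beside Nsf and Snap47 these were Tmed2, a cargo receptor of the secretory pathway, with 0 of 257 and 0 of 199, and the retromer subunit Vps29, with 0 of 279 and 0 of 166. Sar1a, the GTPase that starts COPII coats, had its 50-nt 5′ UTR exon in 2 of 275 reads in replicate 1 (0.727%, interval 0.0882 to 2.6%) and 5 of 252 in replicate 2 (1.98%, 0.647 to 4.57%).

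Several exons of the machinery of membrane fission and clathrin coats were used in part or in full. Mff, the receptor for the fission GTPase on mitochondria, carried its 33-nt exon in 54 of 201 reads in replicate 1 (26.9%, interval 20.9 to 33.6%) and 55 of 153 in replicate 2 (35.9%, 28.4 to 44.1%). Its mean over the 2 libraries was 1.82% over annotated transcripts alone and 21.7% with any flanking sites. That GTPase, Dnm1l, had its 39-nt exon in 47 of 100 reads in replicate 1 (47%, interval 36.9 to 57.2%) and 57 of 89 in replicate 2 (64.04%, 53.2 to 73.9%), with a mean of 22.5% over annotated transcripts alone. Clta, clathrin light chain A, carried its 36-nt exon in 118 of 158 reads in replicate 1 (74.7%, interval 67.2 to 81.3%) and 80 of 105 in replicate 2 (76.2%, 66.9 to 83.96%). Git1, an Arf GTPase activator of synapses, had its 27-nt exon in 118 of 131 reads in replicate 1 (90.1%, interval 83.6 to 94.6%) and 141 of 157 in replicate 2 (89.8%, 83.98 to 94.1%). Napb, the neuronal beta-SNAP, carried its 47-nt exon, which shifts the frame, in 182 of 182 reads in replicate 1 (100%, interval 97.99 to 100%) and 221 of 222 in replicate 2 (99.5%, 97.5 to 100%). Against these, the 21-nt exon of the clathrin heavy chain Cltc was in 0 of 83 and 0 of 70 reads, beside 13 and 16 with a displaced junction, and the 30-nt exon of the dynamin Dnm2 was in 6.15% and 5.13%, and in no read over annotated transcripts alone or with models of at least 2 reads. Dnm1l, Clta, Git1, Cltc and Dnm2 were named after their values were seen. None of these differed between libraries past the test described below.

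The 16 short exons of RNA-binding genes had a median of 83.4%, and 9 kept the frame. Hnrnpk, a nuclear RNA-binding protein, carried its 44-nt frame-shifting exon in 624 of 637 reads in replicate 1 (97.96%, interval 96.5 to 98.9%) and 571 of 581 in replicate 2 (98.3%, 96.9 to 99.2%). Puf60, a splicing factor, carried its 51-nt exon in 213 of 366 reads in replicate 1 (58.2%, interval 52.96 to 63.3%) and 204 of 314 in replicate 2 (64.97%, 59.4 to 70.2%). Hnrnpa2b1 carried the 36-nt exon that tells its B1 form from A2 in 15 of 248 reads in replicate 1 (6.05%, interval 3.42 to 9.78%) and 16 of 239 in replicate 2 (6.69%, 3.87 to 10.6%), so most reads were of the shorter A2 form. Rbm39, a splicing coactivator, had a 51-nt exon in none of 241 and 195 reads. The 34-nt exon of Ptbp2, the neuronal polypyrimidine tract protein, is known to decide whether its mRNA is stable, and it was in 85 of 86 reads in replicate 1 (98.8%, interval 93.7 to 100%) and 88 of 89 in replicate 2 (98.9%, 93.9 to 100%); it was named after its values were seen.

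Over the synapse, cytoskeleton and trafficking lists together, 85 of 108 exons kept the frame, or 78.7%, against 60% of the other 400. Of the 42 exons of these lists included in 10 to 90% of reads, 39 kept it. Among the other 400, 98 of 125 such exons did. Inside coding sequence lay 82.4% of the 108 and 68.25% of the 400. Exons of 52 to 200 nt in the synapse, cytoskeleton and trafficking lists had frame-keeping shares of 61.4, 61.1 and 61.2%, against 44.3% of all exons of that length. These lists were chosen with results of these data known, so the counts describe them and are no independent evidence of a difference.

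In different genes, 6 pairs of equal-length members shared at least 70% of their bases. Of these pairs, 5 lay in related genes. The 27-nt exons of Ppfia3 and Ppfia4 were carried by 100% and 98.99% of reads in the 2 libraries and by all reads. The 24-nt exons of the neuronal transcription factors Mef2a and Mef2c were carried by 85.4% and 86.7% and by 70% and 84.4%. Both pairs were high in both libraries. The 42-nt exons of Tpd52 and Tpd52l2, vesicle traffic proteins, were carried by 98.5% and 100% and by 78.6% and 78.6%. With any flanking sites that of Tpd52 was carried by 76.1% and 62.7%, a mean of 69.4%. The mean for Tpd52l2 was then 90.6%, so the order of these 2 genes was reversed. The sixth pair was of Fam168b and Homer1, genes of different families, whose 36-nt exons share 28 bases and were carried by 25.2% and 17.5% and by 97.7% and 85.2%. These pairs were named after their values were seen.

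Next came the 5 members that lay nearest to equal use of the 2 forms. Ptpra, a receptor tyrosine phosphatase, carried its 27-nt exon in 142 of 290 reads in replicate 1 (48.97%, interval 43.1 to 54.9%) and 154 of 301 in replicate 2 (51.2%, 45.4 to 56.9%). Gyg, which primes glycogen, carried its 51-nt exon in 54.9% and 48.3%, and the splicing gene Luc7l2 its 30-nt exon in 43.8% and 53.1%. The fourth was the exon of Nrcam described above. Over annotated transcripts alone the means of the 2 libraries were 0% for Ptpra and for Nrcam and 6.25% for Luc7l2, so their place near equal use rests on the reads of transcript models that are not annotated. In Myef2 the 51-nt exon was in 38 of 60 reads in replicate 1 (63.3%, interval 49.9 to 75.4%) and 18 of 46 in replicate 2 (39.1%, 25.1 to 54.6%), a difference that did not pass the test below.

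The 2 libraries gave like values for most members. Inclusion differed by at most 5 percentage points for 398 of 508 exons and by more than 20 for 10, and the median absolute difference was 1.34 points. Pearson's r between the libraries was 0.99 over the 508 exons, a description over exons of 2 shared libraries. Fisher's exact test (two-sided, included and skipped reads by library, Benjamini-Hochberg adjustment over 4450 cassette exons) called 0 of the 508, against 0.0225% of all cassette exons. At an unadjusted p of at most 0.05 there were 17 of the 508, against 135 of the 4450. With reads at any flanking sites counted, 1 member was called, against 5 exons over all lengths. That member was the 45-nt exon of Rsrp1, carried by 0% and 24% of reads with an adjusted p of 0.00122 by Fisher's exact test. The smallest by Fisher's exact test was for Ppp3ca, at 73.3% and 68.4%, with p = 0.0029 and an adjusted p of 0.561. Epn2, an epsin of clathrin coats named after its values were seen, had 48.7% in replicate 1 and 27.3% in replicate 2, with an adjusted p of 0.608 and a mean of 12.1% over annotated transcripts alone. These p-values compare reads of 2 pools of animals, and the uneven choroid plexus and astrocyte markers, the latter at 2584 and 4206 CPM, moved with the libraries; their part was not tested.

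**Figure D5:**
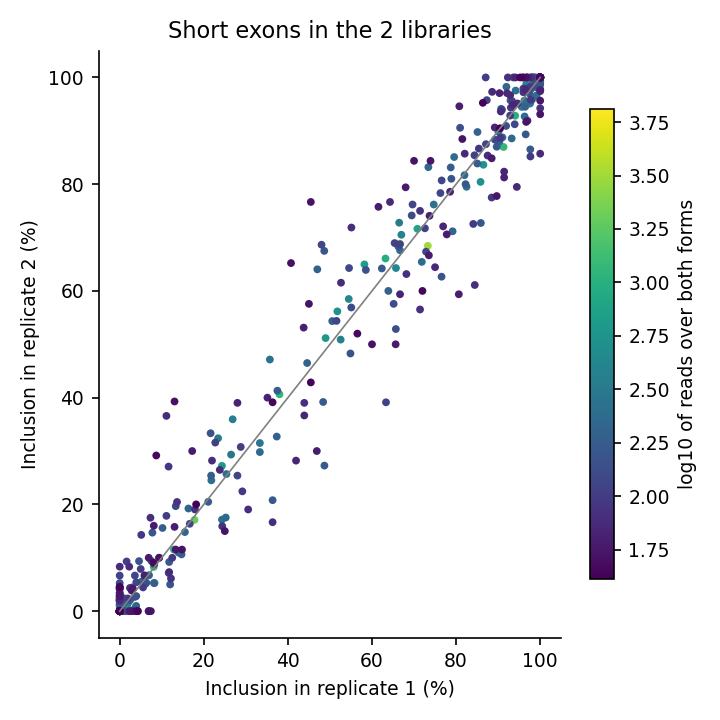
Inclusion of the 508 short cassette exons in replicate 2 (vertical axis, percent) against replicate 1 (horizontal axis, percent), coloured by log10 of the reads over both forms, with the line of equal values in grey. The 10 exons more than 20 points from the line had 47 to 175 reads over both libraries, and 398 exons lie within 5 points of it.

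Within reads, inclusion of a short exon could be set against another cassette exon of the same molecule. Of 2194 exon pairs with at least 20 reads in each library that spanned both, 508 held a short exon. Fisher's exact test (two-sided, Benjamini-Hochberg adjustment over the pairs of each library) called a pair where it passed 0.05 in both libraries in the same direction. It called 4 of the 508, against 0.319% of all pairs. Both counts include pairs in which an exon was in all or in none of the spanning reads. Such pairs could not be called, so the shares do not measure how often exons were linked. At an unadjusted p of at most 0.05 in both libraries there were 12. The number called was 2 with models of at least 2 reads, 8 with replicate 1 alone and 5 with replicate 2 alone.

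Ptk2, the focal adhesion kinase, gave the pair of 2 short exons. Of 62 reads in replicate 1, 44 carried both the 18-nt and the 21-nt exon and 14 neither, while 1 carried the first alone and 3 the second alone. In replicate 2, 33 of 46 carried both, 9 neither, 0 the first alone and 4 the second alone. The exons were thus read together, with adjusted p of 2.42e-07 and 0.000356. In the annotation used here both lie in transcripts without coding sequence. At the 18-nt exon 7.69% of all reads had a displaced junction, which the pairs leave out.

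Exoc7, a subunit of the exocyst that tethers vesicles, joined its 39-nt exon to a 93-nt exon upstream. In replicate 1, 63 of 88 reads carried both, 17 neither, 2 the longer one alone and 6 the short one alone. Replicate 2 had 57 of 80 with both, 10 with neither, 3 and 10. Adjusted p were 2.61e-08 and 0.00659.

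Epb41l3, a protein 4.1 family member that ties spectrin and actin to the membrane, had a 36-nt exon linked to 2 later exons in opposite ways. With the 75-nt exon, 69 of 74 reads in replicate 1 carried the short exon alone, 3 the longer alone, 1 both and 1 neither. In replicate 2 these were 69 of 77, 4, 4 and 0. So the short exon was missing more often from reads with the 75-nt exon than from reads without it, with adjusted p of 0.0357 and 0.0142. The 75-nt exon was itself in few reads, and in replicate 2 as many of these carried the short exon as lacked it. With the 123-nt exon, 69 of 80 reads carried both and 7 neither in replicate 1, and 69 of 82 and 10 in replicate 2, with adjusted p of 9.13e-05 and 2.93e-07. Both pairs rest on few reads that skip the short exon. Its mean inclusion was 84.5% over all models and 97.5% over annotated transcripts alone.

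Just inside the read minimum stood the 27-nt exon of Cask, a synaptic scaffold kinase, with 0 of 20 and 0 of 21 reads, which allows up to 15% and 14.3%. Beside it were the exons of Slc25a14 (0% and 0%, or 10.9% and 13.2% with any flanking sites) and Brsk2 (18.2% and 20%, or a mean of 0% with models of at least 2 reads and 28.7% with any flanking sites). Just outside, with 19 reads in replicate 2, were the exons of U2af1l4 (100% and 100%), Spink8 (52.1% and 47.4%) and Crcp (100% and 100%). Not all members were independent. In 48 genes 2 or more were found, 102 members in all, 6 overlapped another member and 10 shared both flanks with another.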

How the data were processed

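RNA of 2 pools of hippocampus was read as long cDNA reads. Each library came with a deposited table of raw counts of reads by transcript model, to which no scaling had been applied, as the file headers and whole-number values show. The models are GENCODE M21 transcripts on mm10 plus models named by TALON, with their exon coordinates as deposited by the authors. For the aligner, versions and filters, these were not given in the sources used here. No per-sample column was left unused.

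Counts of all models on the gene's strand were summed for each inclusion (exon and both junctions) and skipping (junction of the same flanks), with 1 flank pair per exon, the one with the most reads. CPM used all reads of a library. Coding position and sequence came from GENCODE M21, whose exons were identical for 9643 of 9643 transcripts checked. Fisher's exact tests and Clopper-Pearson intervals used scipy 1.17.1, with Python 3.11.15, numpy 2.4.6, pandas 2.3.3 and matplotlib 3.10.9. The steps were tested on simulated data. The labels do not tie libraries to single animals, so p-values measure only the spread of reads between 2 pools.

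Members, gene lists and tests were chosen with earlier results of these data known. The rule named the 8 most-read members of each of 3 lists, 4 of the RNA-binding list, the 10 most read, the 5 shortest, the 5 nearest to 50%, the 5 frame-shifting with the most reads, linked pairs called and the 3 nearest the read minimum; 1 named member is not reported here. Alternatives were annotated transcripts, models with at least 2 reads, minimums of 10 and 50 reads, any flanking sites, 15 to 27 nt, inclusion of at least 80 or 90%, unadjusted p, and each library left out. A count of reads with displaced junctions was added after seeing the data. Introns and proteins were not analysed here.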

Additional observations from a re-analysis of the deposited data

How the results depend on the processing

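Counts of exons scaled with the rule: 252 exons had at least 50 reads and 114 were of 15 to 27 nt. Median inclusion, 39.4%, was 25.0% over annotated transcripts, 50.8% with models of at least 2 reads, 35.1% with at least 10 reads, 41.6% with any flanking sites, 54.1% at 15 to 27 nt and 39.1 to 41.9% with a library left out. Of 237 exons included in at least 50% of reads in both libraries, 136 reached 90%; the number was 157 over annotated transcripts, 118 with at least 50 reads and 58 at 15 to 27 nt. The frame-keeping share, 64.0%, was 80.7% at 15 to 27 nt, and that at 10 to 90% inclusion, 82.0%, was 88.1%. With annotated transcripts alone the list medians were 64.3% for synapse, 29.0% for cytoskeleton, 0 for trafficking and 73.8% for RNA binding; with models of at least 2 reads 70.9% for synapse and 12.8% for trafficking; with at least 10 reads 17.7% for cytoskeleton and 12.9% for trafficking; with at least 50 reads 69.8, 42.8, 27.3 and 79.3%; at 15 to 27 nt 60.1, 16.1, 19.2 and 61.9%. Any flanking sites gave 18.8% for trafficking and 75.6% for RNA binding. With a library left out they ranged from 12.4 to 22.7% for cytoskeleton and from 5.13 to 13.6% for trafficking. Exons called between libraries were 1 with any flanking sites and 17 at an unadjusted p, against 5 and 135 over all lengths. Linked pairs called were 2 with models of at least 2 reads, 1 at 15 to 27 nt and 5 to 8 with a library left out; they were not run with any flanking sites. The cause was not tested. With annotated transcripts, 8 of 43 named exons moved by over 10 points. Of 52 named exons, 4 did so with any flanking sites, 2 with models of at least 2 reads and 1 with either library left out. No value over annotated transcripts alone was obtained for the named exons of Snap91, Sptan1, Ptk2, Hnrnpk, Klc1, Cadm1, Myef2 and Brsk2. The same holds for the exon of Ncam1 and the 42-nt exon of Tpd52, both named after their values were seen. No paired analysis was possible because there is 1 group. Depth limits most members: at a median of 53 reads in replicate 2 differences of a few points were not detectable, and 0 included reads does not show absence.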

Other observations

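Short exons that the annotation lacks were also read. Among internal exons of 15 to 51 nt between annotated flanking sites, 26 unannotated combinations of exon and flanks had at least 5 included reads in each library. In 16 of them 1 edge was annotated elsewhere, and in 9 neither edge was, of which 6 had a length that is a multiple of 3. Eprs, a tRNA synthetase, carried an unannotated 21-nt exon (chr1:185387357-185387377) in 28 reads beside 50 that skipped it in replicate 1, and in 24 beside 64 in replicate 2, or 35.9% and 27.3%. Pacs2, a membrane sorting protein, carried one of 33 nt (chr12:113064816-113064848) in 37.0% and 36.1%. Both were thus read in part of the molecules in both libraries.

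Proteins of the inhibitory synapse held 2 such exons. Glrb, the beta subunit of the glycine receptor, had one of 48 nt (chr3:80850428-80850475) in 11 reads beside 154 skipping in replicate 1 and in 16 beside 165 in replicate 2, or 6.67% and 8.84%. A form of 51 nt with the same start in the genome was in 6 reads of each library. Gphn, the gephyrin scaffold that anchors glycine receptors, had one of 39 nt (chr12:78435174-78435212) in 11.2% and 14.0%. Snrpn, a spliceosome protein gene, had one of 44 nt (chr7:59993662-59993705) in 17 reads of each library beside 2190 and 1416 that skipped it, or 0.770% and 1.19%. Rbfox2, a splicing factor of the nervous system, had one of 32 nt (chr15:77089862-77089893) in 5 and 6 reads. These coordinates are those of the deposited models (mm10), and the genes were chosen after their values were seen.

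Below 15 nt, 20 of 21 annotated cassette exons had no included read. They include the 6-nt exon of Nsmf, a synapse-to-nucleus messenger, with 0 of 798 and 0 of 1054 reads, and the 6-nt exon of Snap91, with 0 of 214 and 0 of 233. The exception was a 12-nt exon of Dnm2, a dynamin, in 23 of 64 and 33 of 77 reads. Whether such short exons can be placed by the alignment used was not tested.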
